A study of Mus musculus with 5 samples.

Results

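The genes described here are 9 members of the BCL2 family, the proteins that decide at the outer mitochondrial membrane whether a cell survives or enters apoptosis. They were found by their symbols, Bcl2, Bcl2l1, Mcl1, Bcl2a1a, Bcl2a1b, Bcl2a1d, Bcl2l11, Bax and Bak1, and each had 1 of the 38130 entries in every expression file. All 9 passed the filter on low values and were among the 11296 genes tested.

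RNA sequencing was run on regulatory T (Treg) cells, a CD4 lineage defined by Foxp3 that keeps immune responses in check. There were 5 libraries, each of sorted CD4+YFP+ cells. The mice were C57BL/6, and Foxp3 drives a Cre recombinase with a yellow fluorescent protein in them, so deletion and sorting both follow Foxp3. The KO library came from Foxp3Cre-YFP/malt1fl/fl mice aged 21 days, in which Malt1 is deleted in Treg cells. The 2 KI libraries came from mice aged 6 weeks with a floxed allele and a C472A allele (malt1fl/C472A), which the labels describe as inhibition of the protease in Treg cells. The WT libraries came from Foxp3-Cre-YFP reporter mice with no Malt1 mutation, 1 library at 21 days and 1 at 6 weeks. Malt1 encodes a paracaspase that carries antigen receptor signals to NF-kB, and the comparisons ask what its loss, or that of its protease activity, does to Treg transcripts. The labels do not say whether libraries came from separate or pooled animals, so a p-value here reflects only how far these libraries vary, and that variation may be technical. KO and each WT age had 1 library, so differences between them have no replicate check.

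Anti-apoptotic members (Bcl2, Bcl2l1, which encodes BCL-XL, Mcl1 and the Bcl2a1 genes, which encode A1) hold the death effectors BAX and BAK in check. BH3-only members such as BIM, the product of Bcl2l11, bind the anti-apoptotic members and free the effectors. In mice, Treg cells depend on MCL1 and are restrained by BIM, and Bcl2l1 and the Bcl2a1 genes are known targets of NF-kB in lymphocytes.

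Levels are given as scaled FPKM, the authors' FPKM (fragment counts normalized to gene length and library depth) divided by 1 factor per library. Except for the Bcl2a1 sum, the bounds printed with them are the authors' own, at 2 standard errors on each side. They hold no spread between libraries. Every difference is one of log2(scaled FPKM + 1), a scale that understates changes of low genes, and a difference of 1 is called 2-fold. Estimated depth was 7620000 fragments in KO, 26700000 and 26300000 in KI, 29500000 in 21-day WT and 6690000 in 6-week WT. Thus every comparison with WT of the same age set a deep library against a shallow one. Across all tested genes, 47.2% had levels in the shallow KO and 6-week WT libraries that did not overlap those of the deep libraries. Among the members 6 of 9 did so, with Bcl2a1a, Bax and Bak1 higher and Bcl2, Bcl2a1d and Bcl2l11 lower in the shallow libraries. Malt1 itself had 17.6 scaled FPKM in KO, 55.9 and 37.8 in KI, 27.0 in 21-day WT and 15.2 in 6-week WT, so its level did not separate KO from WT. A gene-level value also counts exons outside the deleted part. The labels of KO and 6-week WT are thus taken as given: Malt1 does not check them, and a mix-up of labels among libraries that group by depth across genotype and age was not tested. The sorted cells carried Treg and T cell transcripts, with all 8 Treg and all 7 T cell markers at 1 or more in each library. The summed Treg markers were lower in the shallow libraries, at 554 in KO and 1078 and 1026 in KI, against 923 in 21-day WT and 611 in 6-week WT. The largest term of the sum in 21-day WT was Ctla4, at 395.5, with 118.1 in KO. Foxp3, Ikzf2, Il2ra, Ctla4 and Lrrc32 were lower in both shallow libraries than in every deep one. Gpr83 was higher, and Capg and Tnfrsf18 did not separate shallow from deep libraries. Foxp3 itself had 30.5 in KO and 70.1 and 73.6 in KI, against 70.7 in 21-day WT and 39.5 in 6-week WT. The 5 plasmacytoid dendritic cell markers found summed to 40.7 in KO and 20.6 and 27.2 in KI, against 36.5 in 21-day WT and 116.3 in 6-week WT. Bst2 made most of that sum in each library, with 32.7 in KO, 31.9 in 21-day WT and 65.8 in 6-week WT. Siglech had 1.24 in KO, 0.29 in 21-day WT and 16.8 in 6-week WT. Each of these markers was highest in 6-week WT. Against WT of the same age the Treg sum and Foxp3 lay lower in KO and higher in KI, as did Bcl2, Bcl2a1d and Bcl2l11. Bcl2a1a, Bax and Bak1 lay the other way. Bcl2l1 and Mcl1 lay lower in both KO and KI, and Bcl2a1b higher in both. The part of the marker levels in the member differences was not tested.

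The Bcl2a1 genes are tandem copies on mouse chromosome 9, and their sequences bear on how far their values can be told apart. The first 120 coding bases of each, from GENCODE M21 on GRCm38, are shown because they hold 7 of the 12 coding positions at which the 3 genes differ. Capitals mark those positions.
Bcl2a1a, chr9:88957051-88957170, + strand: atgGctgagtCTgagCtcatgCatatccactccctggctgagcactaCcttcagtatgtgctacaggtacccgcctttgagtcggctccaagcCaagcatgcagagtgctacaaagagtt
Bcl2a1b, chr9:89199360-89199479, + strand: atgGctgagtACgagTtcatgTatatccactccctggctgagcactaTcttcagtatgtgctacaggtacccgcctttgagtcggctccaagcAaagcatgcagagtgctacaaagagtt
Bcl2a1d, chr9:88731600-88731719, - strand: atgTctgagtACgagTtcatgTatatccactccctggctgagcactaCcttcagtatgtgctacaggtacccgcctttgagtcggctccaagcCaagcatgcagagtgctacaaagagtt
Over the 519 coding bases Bcl2a1a and Bcl2a1b were 97.9% identical, Bcl2a1a and Bcl2a1d 98.7%, and Bcl2a1b and Bcl2a1d 98.8%. Of all stretches of 100 coding bases, 45.7% in Bcl2a1a, 69.8% in Bcl2a1b and 43.6% in Bcl2a1d occur in that copy and not in the others. For stretches of 50 bases the shares were 26.0%, 47.7% and 16.4% in the same order of genes. Many reads therefore fit more than 1 copy, the split between the copies depends on how the authors' software assigned them, and their summed level is given beside each.

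Bcl2l1 was the member whose levels separated mutant from WT libraries most. Its scaled FPKM was 9.53 in KO (bounds 7.77 and 11.3) and 5.93 (4.96 and 6.89) and 12.3 (10.8 and 13.7) in KI. It was 19.2 in 21-day WT (17.6 and 20.8) and 18.1 in 6-week WT (15.6 and 20.6). All 3 mutant libraries lay below both WT libraries with no overlap of their bounds, while the WT libraries lay within each other's bounds. The mean was 9.24 ± 3.18 in the mutants (SD, n = 3) and 18.6 ± 0.767 in WT (SD, n = 2), a log2 difference of -0.99 (SE 0.310). In limma over all tested genes this gave an unadjusted p = 0.0179 and missed the threshold after Benjamini-Hochberg adjustment (adjusted p = 0.9999, and 0.930 to 1 under the alternatives). Pairings of a mutant with a WT library ran from -1.54 to -0.53. They share libraries, and their common direction follows from the lack of overlap.

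Groups that did not overlap in that comparison were found for 2 of the 9 members, Bcl2l1 and Mcl1, both lower in the mutants, beside 7.02% of all tested genes on the lower side and 14.4% in either direction. Limma called 0 of 11296 genes between mutant and WT (0% of those tested), with 297 at an unadjusted p under 0.05, or 2.63%. Of the members, Bcl2l1 alone was among the 297, on the lower side with 1.25% of all tested genes. The unadjusted limma p of Bcl2l1 was 0.0916 without 21-day WT and 0.0732 without 6-week WT.

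Against WT of the same age, Bcl2l1 lay at -0.94 in KO and at -1.46 and -0.53 in KI replicates 1 and 2. The KI mean difference of -0.99 (SE 0.515) missed the threshold in limma (adjusted p = 0.540). It was -0.53 without KI replicate 1 and -1.46 without KI replicate 2, so the size rests on single libraries. Against 21-day WT the KI mean was -1.07, the same direction. On simulated data the limma fit of KI called 0% of changed genes at every size up to 16-fold. The mutant fit called 2% of those changed 2-fold. A miss of the threshold by any member is therefore not evidence of no difference. Between KI and both WT libraries 3 of 9 members did not overlap, Bcl2a1d higher and Bcl2l1 and Mcl1 lower, beside 33.1% of all tested genes. The summed level of 7 B cell markers was also lower in all mutants, at 8.98 in KO and 4.39 and 3.15 in KI against 17.8 in 21-day WT and 25.4 in 6-week WT. Of these markers 2 were at 1 or more in KO, 1 in each KI library, 5 in 21-day WT and 7 in 6-week WT, and Pax5 was under 0.1 in KI. The largest term of the sum in each library was Cd79b, at 4.79 in KO, 2.06 and 1.99 in KI, 8.93 in 21-day WT and 11.6 in 6-week WT. Cd22 did not follow the sum in KO, at 2.41 against 1.34 in 21-day WT and 1.87 in 6-week WT. Ebf1 had 0.181 in KO, also above the 0.171 of 21-day WT. The part of the B cell markers in the result was not tested. In bulk RNA, fewer cells of a type and less RNA per cell cannot be told apart.

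**Figure D1:**
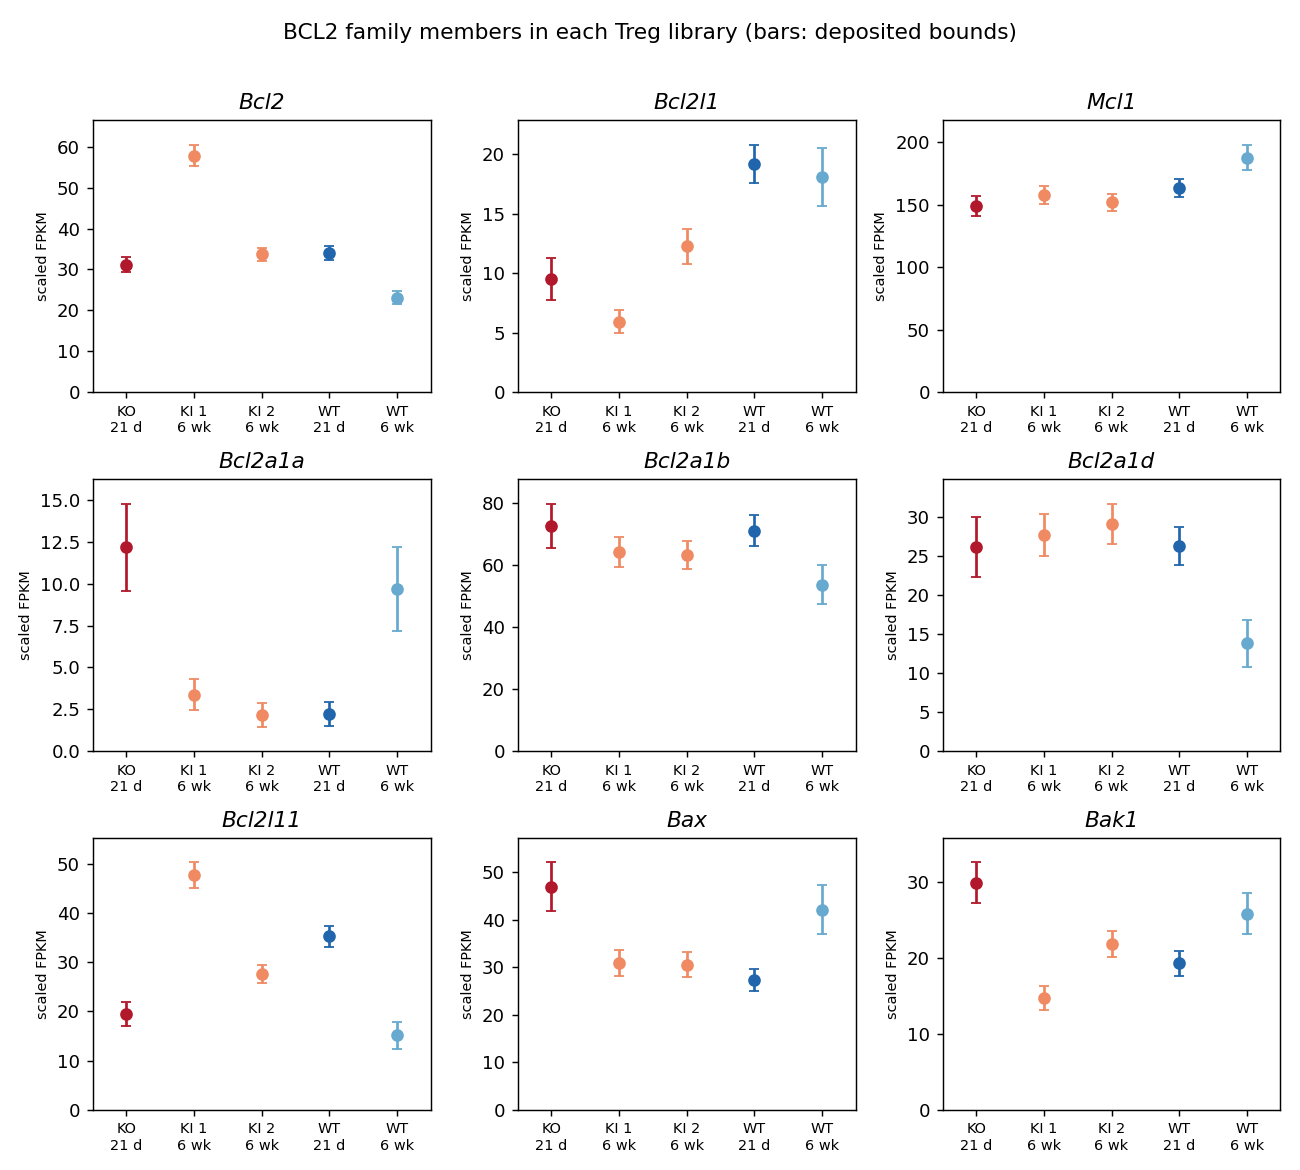
Scaled FPKM of the 9 members (vertical axes, each from 0) in the 5 Treg libraries (KO at 21 days, KI replicates 1 and 2 at 6 weeks, 21-day WT, 6-week WT). Points are single libraries and bars the deposited bounds. Bcl2l1 lies between 5.93 and 12.3 in the mutants, below 19.2 and 18.1 in WT.

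The promoter of Bcl2l1 (chromosome 2, - strand, gene at 152780668 to 152831728) is shown because NF-kB lies downstream of Malt1. RefSeq on GRCm38.p6 lists 3 start sites, and the 250 bases before each were searched on both strands for the NF-kB consensus, for the STAT motif TTCNNNGAA and for the FOXO motif GTAAACA. An NF-kB match was found before 1 of them, at positions -242 to -233 from the start, and is in capitals.
Bcl2l1, chr2:152830718-152830967, - strand: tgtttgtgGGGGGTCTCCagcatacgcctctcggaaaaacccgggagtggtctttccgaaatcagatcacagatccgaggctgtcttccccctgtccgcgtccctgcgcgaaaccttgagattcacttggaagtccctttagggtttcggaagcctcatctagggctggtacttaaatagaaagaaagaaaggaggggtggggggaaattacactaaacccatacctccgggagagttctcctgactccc
Among 32851 promoters of the same length, 3.90% hold an NF-kB match, 7.02% a STAT match and 3.17% a FOXO match. Counted by gene, over all windows of each, the shares are 4.46%, 8.13% and 3.54%. Those shares are for 1 motif, whereas 3 motifs were searched in all windows of 9 members. A match somewhere in the family is therefore likelier than any single share. The match is a description of letters and not of a binding site. The windows of Bcl2, Mcl1, the 3 Bcl2a1 genes, Bax and Bak1 held no match to any of the 3 motifs.

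Mcl1 (chromosome 3, 95658721 to 95663176, + strand) had the highest level of the family in every library and varied least, with a highest-to-lowest ratio of 1.26. It had 148.9 scaled FPKM in KO (bounds 140.9 and 157) and 157.8 and 152.1 in KI, against 163.3 in 21-day WT (155.98 and 170.5) and 187.7 in 6-week WT (177.5 and 197.95). The mutants lay below both WT libraries, but the bounds of 21-day WT overlapped those of all 3. The difference of -0.19 (SE 0.200) missed the threshold in limma (adjusted p = 0.9999). With FPKM as deposited the groups overlapped, at 137 to 170.6 in the mutants and 143.1 to 215.8 in WT, and KO lay above 21-day WT.

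Bcl2 (chromosome 1, 106538178 to 106714274, - strand) had 31.2 scaled FPKM in KO, 57.8 and 33.7 in KI, 34.0 in 21-day WT and 23.1 in 6-week WT. KI replicate 1 stood apart on the high side and 6-week WT on the low side, and the bounds of the other 3 libraries overlapped. KI averaged 45.8 ± 17.03 (SD, n = 2) against 23.1 in 6-week WT, a log2 difference of 0.91 (SE 0.415) that limma did not call (adjusted p = 0.510). The replicates differed, at 1.29 and 0.53, and against 21-day WT they lay at 0.75 and -0.01. KO lay at -0.12 against 21-day WT and at 0.42 against 6-week WT. With FPKM as deposited all mutants lay above both WT libraries, at 34.2 to 50.2 against 26.5 to 29.8.

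Bcl2l11, the BIM gene (chromosome 2, 128126038 to 128162547, + strand), spanned a 3.15-fold range. It had 19.4 scaled FPKM in KO (bounds 17.1 and 21.8) and 47.6 (45.02 and 50.2) and 27.5 (25.7 and 29.3) in KI. It had 35.2 in 21-day WT (33.1 and 37.3) and 15.1 in 6-week WT (12.4 and 17.8). Both KI libraries lay above WT of their age, and KO lay below WT of its age. KI differed from 6-week WT by 1.21 (SE 0.422), with 1.59 and 0.82 in replicates 1 and 2, which missed the threshold in limma (unadjusted p = 0.0557, adjusted p = 0.473). Against 21-day WT the replicates lay on opposite sides, at 0.43 and -0.34. KO lay at -0.82 against 21-day WT and at 0.34 against 6-week WT.

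Between the WT libraries Bcl2l11 was more than 2-fold lower at 6 weeks than at 21 days. It was 1 of 2 members past 2-fold there, with Bcl2a1a on the higher side, beside 8.56% of all tested genes. The order of the 5 libraries for Bcl2l11 was KI replicate 1, 21-day WT, KI replicate 2, KO and 6-week WT from high to low. Its neighbours KO and 6-week WT did not differ beyond their bounds. The same 3 libraries on the high side were the deep ones.

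The window before the first of 2 start sites of Bcl2l11 is shown because FOXO factors are known activators of this gene, and its FOXO match is in capitals, at positions -227 to -221. The second window held no match.
Bcl2l11, chr2:128125788-128126037, + strand: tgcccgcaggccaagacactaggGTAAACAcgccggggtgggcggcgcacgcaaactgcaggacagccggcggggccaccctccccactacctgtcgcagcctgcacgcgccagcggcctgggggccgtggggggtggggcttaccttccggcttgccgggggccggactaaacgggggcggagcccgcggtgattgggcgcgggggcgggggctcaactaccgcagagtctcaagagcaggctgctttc
Foxo3, which encodes such a factor, had 5.57 scaled FPKM in KO and 10.5 and 9.91 in KI, against 15.7 in 21-day WT and 12.1 in 6-week WT.

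Bcl2 and Bcl2l11 kept a narrower ratio than either level. The ratio of Bcl2 to Bcl2l11 was 1.60 in KO, 1.21 and 1.23 in KI, 0.966 in 21-day WT and 1.53 in 6-week WT, so the mutant and WT ranges overlapped. The ratio of Bcl2l1 to Bcl2l11 was 0.490 in KO and 0.124 and 0.445 in KI, against 0.545 in 21-day WT and 1.20 in 6-week WT. Every mutant lay below both WT libraries in that ratio, which needs no scaling between libraries. The ratio re-uses the Bcl2l1 levels given above, so it is no separate support for them. How many gene pairs separate in this way was not counted, and no bounds of the ratio were computed. KO and 21-day WT were close, and the WT libraries differed from each other by more than KO did from 21-day WT.

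**Figure D2:**
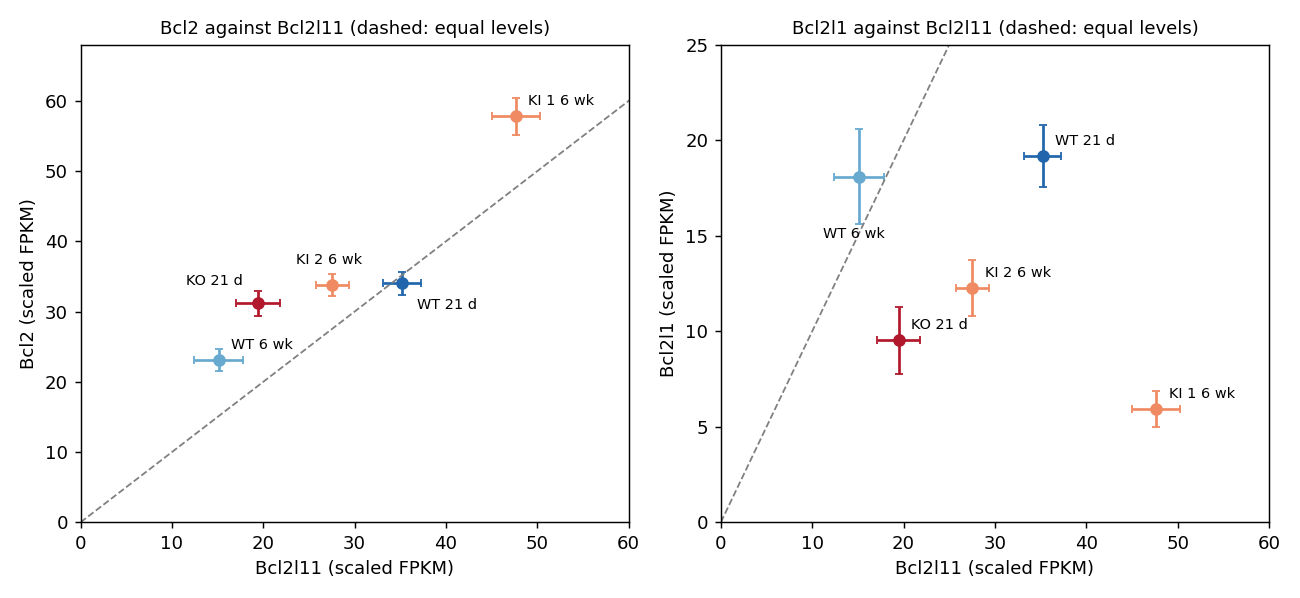
Scaled FPKM of Bcl2 (left, vertical axis) and Bcl2l1 (right, vertical axis) against that of Bcl2l11 (horizontal axes) in the 5 libraries, with the deposited bounds as bars. The dashed line marks equal levels. The ratio of Bcl2 to Bcl2l11 runs from 0.966 to 1.60, and that of Bcl2l1 to Bcl2l11 from 0.124 in KI replicate 1 to 1.20 in 6-week WT.

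The Bcl2a1 genes together had 110.9 scaled FPKM in KO, 95.1 and 94.4 in KI, 99.5 in 21-day WT and 77.1 in 6-week WT. The sum lay 0.16 above WT in KO at 21 days and 0.29 above WT in KI at 6 weeks, where the KI replicates had 0.30 and 0.29. It was lowest in 6-week WT, whose bounds of 69.7 and 84.5 lay below those of every other library. Bounds of the sum were combined from those of the copies as if their errors were independent, although the copies share reads. Bcl2a1b carried most of it, from 65.5% in KO to 71.4% in 21-day WT.

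The copies differed from each other. Bcl2a1a had 12.2 scaled FPKM in KO (bounds 9.56 and 14.8) and 3.38 and 2.16 in KI, against 2.21 in 21-day WT and 9.71 in 6-week WT (7.20 and 12.2). In both KI libraries it was the only member past 2-fold from 6-week WT, at -1.29 and -1.76, beside 2.8% of all tested genes on the lower side and 5.81% in either direction. It was also the only member past 2-fold in KO against 21-day WT, at 2.04, beside 6.13% of all tested genes on the higher side and 14.3% in either direction. With the WT libraries exchanged, no member was past 2-fold, beside 1.19% of all tested genes for KI against 21-day WT and 5.59% for KO against 6-week WT. Limma did not call it in KI (adjusted p = 0.446). The 2 libraries at 9.71 and 12.2 are the shallow ones, and the part of depth in this split was not tested.

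Bcl2a1d had 26.1 scaled FPKM in KO, 27.6 and 29.1 in KI, 26.3 in 21-day WT and 13.8 in 6-week WT. Only 6-week WT stood apart by its bounds. KI lay 0.99 above it (SE 0.226), which limma did not call (unadjusted p = 0.0170, adjusted p = 0.436). Bcl2a1d and Bcl2a1a were the members at an unadjusted p under 0.05 in that fit, 2 of 9 beside 10.7% of all tested genes. In all, limma called 1 gene of 11296 there, 0.00885%, and no member. Bcl2a1b had 72.6 in KO, 64.1 and 63.1 in KI, 71.0 in 21-day WT and 53.6 in 6-week WT, and each library overlapped its neighbour in the order of levels.

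A1 is also made by neutrophils and other myeloid cells. The summed level of 9 myeloid and neutrophil markers was 17.96 in KO and 32.8 and 5.15 in KI, against 9.03 in 21-day WT and 98.6 in 6-week WT. In 6-week WT, where it was highest, the Bcl2a1 sum was the lowest of the 5 libraries and Bcl2a1a was 9.71, above the 2.16 to 3.38 of the deep libraries. The part of myeloid transcripts in the Bcl2a1 levels was not tested. The largest term of the marker sum in 6-week WT was Tyrobp, at 50.1. The neutrophil gene S100a8 had 0.39 in KO and 4.73 and 0 in KI, against 0.44 in 21-day WT and 1.83 in 6-week WT. S100a9 had 1.58 in KO and 2.31 and 0 in KI, against 0 in 21-day WT and 0.23 in 6-week WT. Both were thus highest in KI replicate 1, unlike the sum.

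Bax and Bak1, the death effectors, showed the same order at the top. Bax (chromosome 7, 45461695 to 45466898, - strand) had 46.97 scaled FPKM in KO, 30.9 and 30.6 in KI, 27.3 in 21-day WT and 42.1 in 6-week WT. Bak1 (chromosome 17, 27019810 to 27029009, - strand) had 29.9 in KO, 14.7 and 21.8 in KI, 19.3 in 21-day WT and 25.8 in 6-week WT. For both genes KO lay above WT of its age, at 0.76 and 0.61, and KI lay below WT of its age, at -0.44 (SE 0.212) and -0.50 (SE 0.341). Limma called neither in KI (adjusted p = 0.520 and 0.610). The shallow libraries, KO and 6-week WT, were the highest for both, and against WT of the other age KO lay at 0.15 and 0.20. Annotated genes overlap Bax (Gm45808) and Bak1 (Ggnbp1), and without a stated strand setting reads of overlapping genes cannot be separated. Gm45808 lies on the same strand as Bax, so strand would not separate them. Annotated genes also overlap Bcl2 (D630008O14Rik, Mir3473f and Gm37053), Bcl2a1b (Gm29094, on the same strand) and Bcl2a1d (Gm10634).

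**Figure D3:**
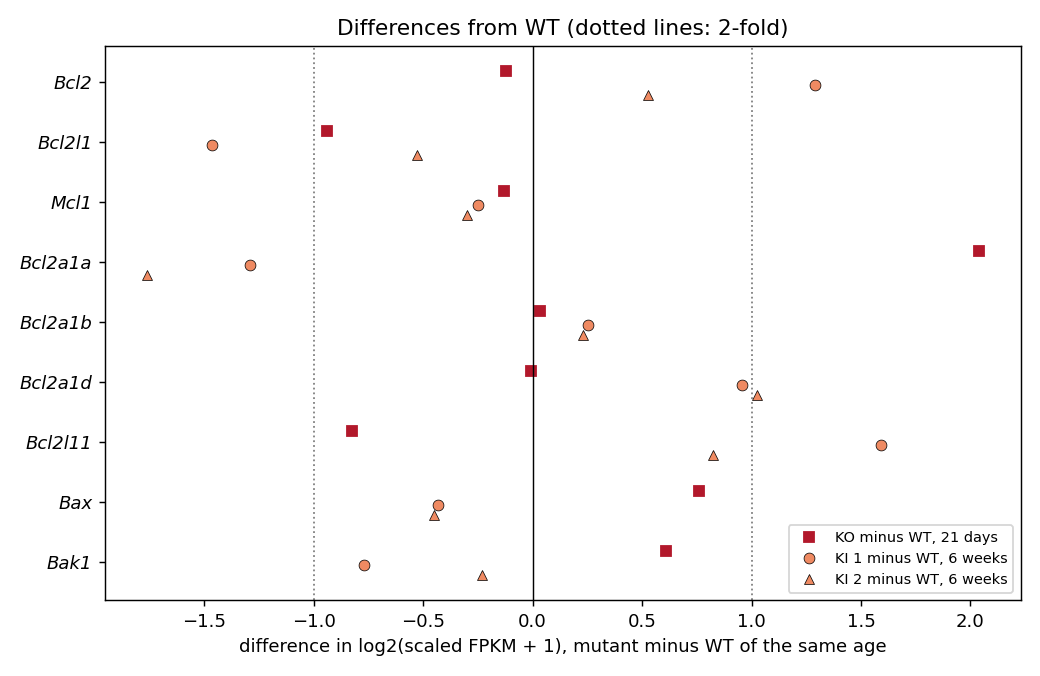
Difference in log2(scaled FPKM + 1) of each member from WT of the same age (horizontal axis), for KO at 21 days (squares) and KI replicates 1 and 2 at 6 weeks (circles and triangles). Dotted lines mark 2-fold. Bcl2l1 and Mcl1 lie left of 0 in all 3 mutant libraries (with FPKM as deposited, Mcl1 in KO does not), and Bcl2a1a lies at 2.04 in KO and at -1.29 and -1.76 in KI.

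Added over the anti-apoptotic members, the scaled level was near constant, at 300.6 scaled FPKM in KO, 316.7 and 292.5 in KI, 315.9 in 21-day WT and 306 in 6-week WT. This rests on the scaling. As deposited, the largest term, Mcl1, had 170.6 FPKM in KO, 137.0 and 154.1 in KI, 143.1 in 21-day WT and 215.8 in 6-week WT. Mcl1 made up 49.6% of the scaled sum in KO, 49.8% and 52.0% in KI, 51.7% in 21-day WT and 61.3% in 6-week WT. Bcl2l1 made up 3.17% in KO and 1.87% and 4.19% in KI, against 6.07% in 21-day WT and 5.91% in 6-week WT. The ratio of this sum to that of Bax and Bak1 was 3.91 in KO, 6.93 and 5.58 in KI, 6.78 in 21-day WT and 4.503 in 6-week WT. It was lowest in the 2 shallow libraries, and the part of depth was not tested.

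**Figure D4:**
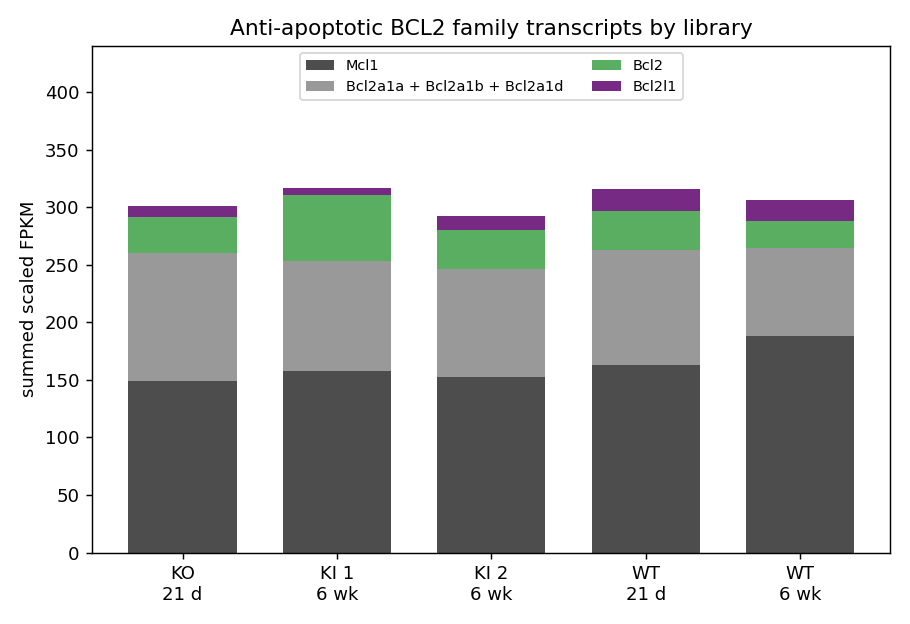
Summed scaled FPKM of Mcl1, the 3 Bcl2a1 genes, Bcl2 and Bcl2l1 (vertical axis, stacked bars from 0) in each library. The sums lie between 292.5 and 316.7, and the Bcl2l1 segment is 1.87% to 4.19% of the bar in the mutants and 5.91% to 6.07% in WT.

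In the rest of the BCL2 family, 11 of 17 genes passed the filter. None was past 2-fold in both KI libraries or in KO against WT of the same age, beside 5.81% and 14.3% of all tested genes. In KI 4 were higher and 7 lower than in 6-week WT, with a median of -0.46 beside -0.0045 over all tested genes. In KO 7 were higher and 4 lower, with a median of 0.17 beside 0.02. With the WT libraries exchanged the medians were -0.15 in KI and 0.07 in KO. Limma called 0 of them in KI and in the mutants together. At an unadjusted p under 0.05 were 0 in either fit, beside 10.7% of all tested genes in KI and 2.63% in the mutants. Pmaip1, the BH3-only gene of NOXA, was chosen after its values were seen. It had 11.1 scaled FPKM in KO and 41.1 and 20.2 in KI, against 20.4 in 21-day WT and 9.76 in 6-week WT. Its libraries stood in the same order as those of Bcl2l11.

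Downstream of the mitochondria, all 12 genes of the apoptosome and caspase list passed the filter. In KI 3 of the 12 genes were higher and 9 lower than in 6-week WT, with a median of -0.21. In KO 10 were higher and 2 lower, with a median of 0.39. Between the WT libraries 8 were higher and 4 lower at 6 weeks, with a median of 0.30. With the WT libraries exchanged the medians were 0.08 in KI and 0.16 in KO. None of the 12 was past 2-fold in KO, beside 14.3% of all tested genes, and limma called 0 of them in KI or in the mutants together.

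Of the 8 inhibitor of apoptosis genes, 7 were higher in KI than in 6-week WT, with a median of 0.395, and 6 were lower in KO than in 21-day WT, with a median of -0.72. Between the WT libraries 7 of the 8 were lower at 6 weeks, with a median of -0.74. With the WT libraries exchanged the medians were -0.065 in KI and -0.055 in KO. Beside the same 5.81% and 14.3% of all tested genes in KI and KO, past 2-fold were Birc6 in KI, at 1.07 and 1.23, and in KO Xiap, which encodes a direct caspase inhibitor, at -1.87, Birc6 at -1.27, Naip5 at -1.11 and Birc5, which encodes survivin and is made by dividing cells, at 1.31. Xiap had 5.77 scaled FPKM in KO and 17.4 and 28.9 in KI, against 23.7 in 21-day WT and 9.85 in 6-week WT. Birc5 had 35.0 in KO and 15.3 and 39.7 in KI, against 13.6 in 21-day WT and 22.3 in 6-week WT. The 6 proliferation markers, Birc5 among them, summed to 165.7 in KO and 78.0 and 242.2 in KI. Their sum was 66.7 in 21-day WT and 86.0 in 6-week WT, so the KI replicates differed from each other. The part of proliferation was not tested. In the death receptor list, where 11 of 12 genes passed the filter, only Tnfrsf10b, a TRAIL receptor, was past 2-fold, at -1.49 in KO. Its medians were 0.30 in KI and -0.09 in KO, and with the WT libraries exchanged 0.14 and -0.04. Limma called 0 genes of these lists. At an unadjusted p under 0.05 were 2 of 8 inhibitor and 1 of 11 death receptor genes, higher in KI, beside 10.7% of all tested genes.

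Among 15 genes that act upstream of the family, 12 were higher in KI than in 6-week WT (median 0.39) and 13 were lower in KO than in 21-day WT (median -0.28). Between the WT libraries 13 of the 15 were lower at 6 weeks (median -0.33). With the WT libraries exchanged the medians were 0.0084 in KI and -0.047 in KO. Past 2-fold were 1 gene in KI and 6 in KO, beside 5.81% and 14.3% of all tested genes. Usp9x, which encodes a deubiquitinase that stabilizes MCL1, had 8.66 scaled FPKM in KO and 26.8 and 31.0 in KI, against 26.9 in 21-day WT and 7.40 in 6-week WT. Rel, the NF-kB subunit c-Rel, had 4.64 in KO and 40.5 and 16.2 in KI, against 46.5 in 21-day WT and 7.79 in 6-week WT. Both were low in the shallow libraries, whatever the genotype. Il7r, the receptor for a cytokine that sustains BCL2, had 130.1 in KO and 118.8 and 53.2 in KI, against 58.8 in 21-day WT and 54.6 in 6-week WT. Limma called 0 of the 15, with 2 at an unadjusted p under 0.05, both higher in KI, beside 10.7% of all tested genes.

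Over the 5 libraries, the genes whose centred log2 levels lay nearest to those of Bcl2l1 were Chi3l7, Ildr1 and Prkra, with a root mean square difference of 0.132 to 0.168. Nearest to Mcl1 were Tyk2, Naa35 and Dolpp1, at 0.0319 to 0.0331. Nearest to Bcl2l11 were 4931413K12Rik, Hdgfrp3 and Tdg, at 0.0428 to 0.108. Nearest to Bcl2 were Palm3, Tmem158 and F730043M19Rik, at 0.0462 to 0.0560. Nearest to Bax were BC021614, Aaas and Hdac3, at 0.0241 to 0.0292, and to Bak1 Dap, Rdbp and Acat1, at 0.0115 to 0.0334. Nearest to Bcl2a1a were Fscn1, Rpl21 and Gm14233, at 0.154 to 0.206, to Bcl2a1b Chmp6, Rnf5 and B930095G15Rik, at 0.0485 to 0.0553, and to Bcl2a1d Gm10074, Yipf6 and Gstcd, at 0.0214 to 0.0860. The 3 genes nearest to Bcl2a1a were, like it, higher in both shallow libraries than in every deep one. Gm14233 had 2.50 scaled FPKM in KO and 2.63 in 6-week WT and was near 0 in each deep library. Of all tested genes, 47.2% split by depth in 1 direction or the other. With 5 libraries the likeness is a description.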

How the data were processed

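The submitters' processing notes name CASAVA, HISAT2 2.1.0, Cufflinks 2.2.1 and the build GRCm38, with no order or settings. Each deposited file holds gene-level FPKM with a lower and an upper bound, per the file headers. Strandedness, read layout and the annotation used were not given in the sources used here. Each library's FPKM was scaled by its median ratio to the gene-wise geometric mean, over 9874 genes at 1 or more in all 5 libraries. Differences use a pseudocount of 1. Genes entered the test at a mean of 1 or more on this scale (11296 in all). The test was limma 3.58.1 in R 4.3.3, two-sided with a mean-variance trend and Benjamini-Hochberg adjustment, at a threshold of 0.05. KI against WT at 6 weeks has 1 residual degree of freedom, so the lone WT library is assumed to vary as the KI libraries do. Mutant against WT uses all 5 libraries and mixes ages and both mutations. Other comparisons were counted by size. On simulated data over 11296 genes, the KI fit called 0% of changed genes at every size up to 16-fold. The mutant fit called 2% at 2-fold, 54% at 4-fold, 76% at 8-fold and 84% at 16-fold. Depth was estimated from the bounds and is approximate.

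Members, gene lists and naming rules were chosen with earlier results of these data known. From the other lists, at most the 3 largest differences past 2-fold per list, direction and comparison are named. Likeness is the root mean square difference of log2 levels centred on each gene's mean. The files pair IDs with symbols. Coordinates are counted from 1 on GRCm38, after adding 1 to the starts in the files, as 27652 of 36282 entries then match GENCODE M21. Bcl2a1a and Bcl2a1d carry other IDs in that release and were matched by symbol. All 9 members matched a RefSeq promoter. Alternatives were another pseudocount, scaling, filter, spread model and control library, and leaving out libraries. A result for 1 gene of the other lists is not reported here.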

Additional observations from a re-analysis of the deposited data

Results flagged for a closer look

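With scaled FPKM, for 6 members the KI and KO libraries lay on opposite sides of WT of their own age, in every library. The gap between the differences, KI mean minus KO, was 1.03 for Bcl2, -3.57 for Bcl2a1a, 0.9996 for Bcl2a1d, 2.03 for Bcl2l11, -1.20 for Bax and -1.11 for Bak1 on the log2 scale. The difference between KI and KO was not tested. For Bcl2 and Bcl2a1d the KO values were -0.12 and -0.0085, with overlapping bounds of KO and WT at 21 days. With FPKM as deposited they turned to 0.25 and 0.36, the same side as KI. In all 6, KO and WT at 6 weeks had the lower or the higher levels of the 5 libraries together, the libraries with an estimated 7620000 and 6690000 fragments against 26300000 to 29500000. Of all tested genes, 47.2% had that pattern. Genotype, age and depth cannot be told apart in these comparisons.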

How the results depend on the processing

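No paired analysis was possible because the labels link no libraries as pairs and 3 of the 4 groups had 1 library. In limma, KI against WT at 6 weeks called 1 gene, but 2 with FPKM as deposited, 25 with a mean of at least 5, 50 with a pseudocount of 0.1, and 0 with no filter, with no trend or with upper quartile scaling. Mutant against WT called 0 genes, and 0 to 11 when a library was left out (11 without WT at 6 weeks, 4 without WT at 21 days, 1 without KO). No member was called under any alternative run with a test. The 1 member past 2-fold in KI became 2 with a pseudocount of 0.1, 0 against WT at 21 days, and 2 to 4 without a KI library. The 1 past 2-fold in KO became 2 with a pseudocount of 0.1 (adding Bcl2l1), 2 with FPKM as deposited (adding Bax) and 0 against WT at 6 weeks. The 2 between the WT ages became 1 with FPKM as deposited. The cause was not tested.

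Of 264 single-member values under an alternative, 238 had the same sign as reported and 26 the other. Bcl2l1 stayed lower in all alternatives run for mutants (-1.20 to -0.73), KI (-1.46 to -0.53) and KO (-1.0019 to -0.58, the last with FPKM as deposited), but between the WT ages it turned to 0.29 with FPKM as deposited. In KO, FPKM as deposited also turned Bcl2 to 0.25, Mcl1 to 0.25 and Bcl2a1d to 0.36. Against WT at 6 weeks KO turned to 0.42 for Bcl2, 0.88 for Bcl2a1d and 0.34 for Bcl2l11. Bcl2a1d in KO also turned to 0.04 with upper quartile scaling and 0.16 with the Bcl2a1 sum. With FPKM as deposited the median over all genes moved to -0.26 in KI and 0.35 in KO against WT of their age. Against WT at 21 days KI turned to 0.21 for Bcl2a1a, -0.16 for Bcl2a1b and 0.16 for Bax. Bcl2a1b in KI turned to -0.047 with FPKM as deposited. With the Bcl2a1 sum, Bcl2a1a turned to 0.29 in KI, 0.19 in mutants and -0.36 between the WT ages. Without a library, the mutant difference ran from -0.92 to 0.82 for Bcl2a1a, -0.093 to 0.30 for Bcl2a1b, -0.25 to 0.92 for Bcl2l11, -0.24 to 0.36 for Bax and -0.30 to 0.19 for Bak1. Low depth limits KO and WT at 6 weeks, where the bounds of Bcl2a1a lie 21.5% and 25.8% from its values.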
